A study of Rattus norvegicus with 4 samples.

Results

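Fatty acid synthesis, elongation and desaturation was followed through 9 rat genes, measured by 13 probes among the 45598 probes of an expression array that named 18828 genes. The members were found by gene name among the probes that were not controls. The 10 names listed for the pathway were Fasn, Acaca, Acly, Scd, Scd1, Elovl1, Elovl5, Elovl6, Fads1 and Fads2, and Scd and Scd1 are 1 gene, named Scd here. The cells were NR8383, a macrophage line founded from the lung lavage of a normal rat, which contains both adherent and floating cells. All 4 samples formed 1 group: control cells after 20 passages, kept submerged in medium with 15% heat-inactivated serum, 2 mM glutamine, antibiotics and an antifungal under 5% CO2. The labels call the samples biological replicates, give a submerged incubation of 4 h in one place and 48 h after seeding in another, and set no second condition beside them. The results are therefore the level of each enzyme in these cells, whether it was above the array's background, and how far replicates differed.

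Long saturated fatty acids are built from acetyl-CoA. ATP citrate lyase makes cytosolic acetyl-CoA from citrate, acetyl-CoA carboxylase turns it into malonyl-CoA, and fatty acid synthase joins these units into palmitate. In the endoplasmic reticulum, elongases of the ELOVL family lengthen fatty acyl chains, stearoyl-CoA desaturase makes monounsaturated chains, and the FADS desaturases work in sequence on polyunsaturated ones. In alveolar macrophages these lipids feed membranes, lipid droplets and signalling molecules, and the cells also take up the lipids of surfactant.

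Each probe is a 60-base sequence, and its value depends on its position in the transcript as well as on the amount of RNA. The sequences of 6 member probes are shown because the detection call of the gene, or a disagreement between probes of the gene, rests on them. Probes of a gene are numbered by position along the rn4 genome, the build of the files. Capitals mark the 15 bases that both Elovl5 probes share.
Acaca probe 1 (chr10:72499952-72500011, plus strand): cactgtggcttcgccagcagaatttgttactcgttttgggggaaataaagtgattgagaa
Acaca probe 2 (chr10:72677048-72677107, plus strand): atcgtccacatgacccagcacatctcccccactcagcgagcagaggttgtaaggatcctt
Elovl6 probe 1 (chr2:227047594-227052367, plus strand): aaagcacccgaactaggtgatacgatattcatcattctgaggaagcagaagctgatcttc
Elovl5 probe 1 (chr8:82947178-82947237, plus strand): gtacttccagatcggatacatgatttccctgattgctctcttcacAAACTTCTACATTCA
Elovl5 probe 2 (chr8:82947223-82948248, plus strand): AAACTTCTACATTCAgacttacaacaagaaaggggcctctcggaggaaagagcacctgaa
Fads2 probe (chr1:212514714-212514773, minus strand): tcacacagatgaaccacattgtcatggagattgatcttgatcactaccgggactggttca
The mapped span of Elovl6 probe 1 is 4774 bases and that of Elovl5 probe 2 is 1026 bases, so each of these probes is split in the genome. No member probe had the sequence of another probe on the array, and their GC content lay between 36.7% and 55.0%, against a median of 43.3% over all probes.

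Levels are the log2 processed signal of a probe less the 75th percentile of its array, so a level of 0 is the signal that 75 percent of the spots other than controls do not exceed. That percentile lay between 958 and 1489 fluorescence units on the 4 arrays. A probe was above background on an array when the scanner software's "well above background" flag was set for over 0.5 of its usable spots. The weakest signal so flagged on each array lay between -6.34 and -5.56, and none of the 308 negative control spots was flagged. Levels of different probes are not comparable, so no member is ranked above another. Of 10 macrophage markers 9, including Cd68 and Lyz2 were well above background on all 4 arrays, and Adgre1 was not. Of the markers of other cell types, 0 of 6 hepatocyte, 2 of 8 alveolar type 2, 3 of 6 adipocyte, 2 of 5 neutrophil, 1 of 4 T cell and 1 of 4 B cell genes were well above background on all arrays. Those above background on all arrays included Abca3 at 1.81 and Napsa at 3.82 (type 2), Cidec at 0.19, Cfd at 1.58 and Retn at 6.45 (adipocyte), Mpo, Camp, Cd3d and Cd79a, while Alb, Sftpb, Adipoq, Elane and Cd3e were so on none. Their part in the member levels was not tested. In RNA from a whole culture, fewer expressing cells and less RNA per cell cannot be told apart.

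Of the 9 members, 5 were well above background on all 4 arrays by at least 1 probe: Acly, Acaca, Elovl6, Elovl5 and Elovl1. This is 55.6% of the members, close to the 54.9 percent of all 18828 named genes. Fads2 was well above background on 1 array, and Fasn, Scd and Fads1 on none, as were 37.6 percent of named genes. The members that were missed rest on 1 probe each, and whether any such probe had failed was not tested. Among the 12932 genes with 1 probe, 49.9 percent were well above background on all arrays. Of the members with 1 probe, Acly and Elovl1 were so, and Fasn, Scd, Fads1 and Fads2 were not.

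**Figure D1:**
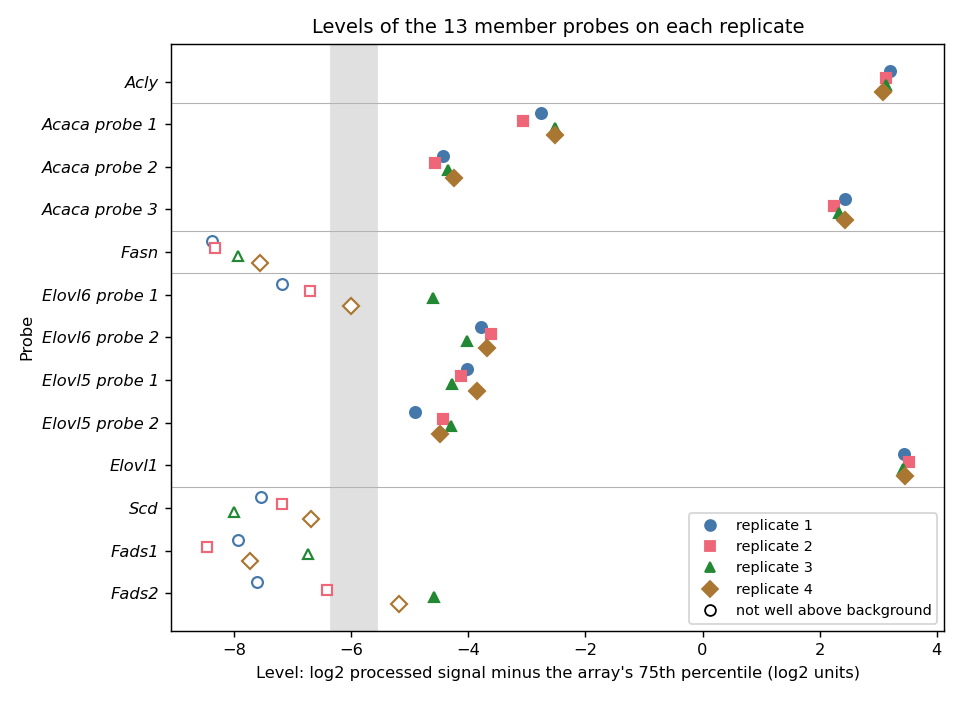
Level of each of the 13 member probes on replicates 1 to 4, as log2 processed signal minus the 75th percentile of the array, with filled symbols where the probe was well above background and open ones where it was not; the grey band spans the weakest well-above signal of the 4 arrays, from -6.34 to -5.56. The Acly and Elovl1 probes and Acaca probe 3 lie above 0 on every replicate, and Fasn, Scd and Fads1 have only open symbols; levels can be read along a line, not between lines.

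Acly, which makes the cytosolic acetyl-CoA, was well above background on all arrays by 1 probe (chr10:89420943-89421002, minus strand), which was printed on 10 spots of every array, while the other members' probes had 1 spot each. Its signals were 12169, 13042, 10319 and 8134 fluorescence units on replicates 1 to 4, and its levels 3.21, 3.13, 3.13 and 3.08, with a mean of 3.14 ± 0.05 (SD, n = 4). Replicate 4 had the dimmest signal but, once the arrays were scaled, lay within 1.09-fold of the others. On each array the 10 spots had an SD between 0.052 and 0.081, which gives their mean a standard error of 0.016 to 0.026. The SD between arrays, 0.051, was 2.36 times the mean of these standard errors. Of 1045 ten-spot probes well above background on all arrays, 13.5% had a smaller SD between arrays than Acly, and their median was 0.0958.

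**Figure D2:**
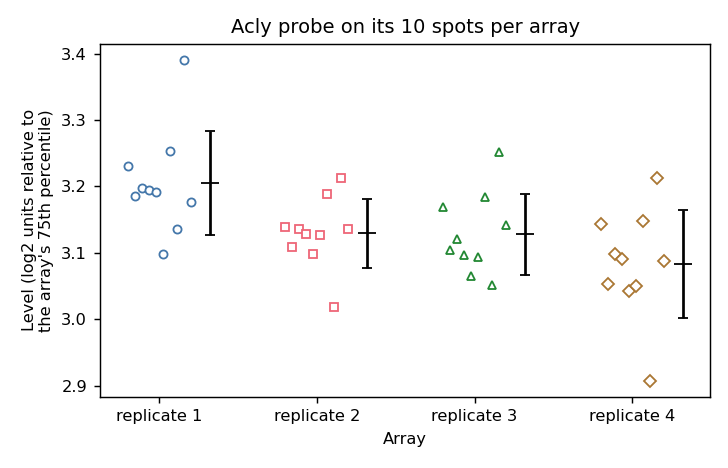
Level of the Acly probe on each of its 10 spots per array (open symbols), with the mean and SD over those spots (bar with caps), on a log2 scale relative to the array's 75th percentile. Spots run from 2.91 to 3.39, the array means from 3.08 to 3.21, and the spots of all 4 replicates overlap.

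Acaca, the acetyl-CoA carboxylase of the cytosol and the committed step of the pathway, was well above background on all arrays by each of its 3 probes. Probe 3, which the array describes as lying in the 3' untranslated region (chr10:72678945-72679004, plus strand), had signals of 7077, 7083, 5960 and 5182 units and levels of 2.43, 2.25, 2.34 and 2.44 (2.36 ± 0.09, SD, n = 4). Probe 1, the farthest upstream of the 3, had signals of 194, 179, 207 and 167 units and levels of -2.76, -3.06, -2.51 and -2.52 (-2.71 ± 0.26). Probe 2, between them, lay at -4.42, -4.57, -4.35 and -4.24 (-4.40 ± 0.14). The 3 probes thus gave levels that spanned 6.76 log2 units for 1 gene, and the gene's level, taken from the brightest probe, holds for probe 3 only. Among the 2749 genes with at least 2 probes above background, the median of this span was 2.06 log2 units, and 2.29% of them had a span at least as wide as that of Acaca. On this scale replicate 2 was the lowest on each of the 3 probes, by 0.34 below the mean on probe 1, 0.17 on probe 2 and 0.11 on probe 3. Across all detected genes 20.2 percent were lowest on replicate 2. On probe 1 the replicates differed by 1.46-fold at most, on probe 2 by 1.26-fold and on probe 3 by 1.14-fold.

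Fasn, the multifunctional enzyme that assembles palmitate, was not well above background on any array. Its probe, which has no rn4 position in the files, had signals of 3.98, 4.67, 4.82 and 5.11 fluorescence units and levels of -8.37, -8.32, -7.94 and -7.55. These values lie beside those of the negative control spots, whose median levels were -8.42, -8.42, -8.03 and -7.64 on the same arrays. They carry no order between replicates. The weaker "positive and significant" flag was set for Fasn on 1 array, and the error that the software gave for the signal was 100.3% of it at the median. The levels limit the signal of this probe and not the enzyme.

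Among the elongases, Elovl1, which extends saturated and monounsaturated very long chains, was well above background on all arrays. Its signals were 14254, 17202, 12684 and 10523 units, and its levels 3.44, 3.53, 3.43 and 3.46 (3.46 ± 0.05, SD, n = 4), a 1.07-fold range, the narrowest of the members. Replicate 2 was the highest and the others lay between 3.43 and 3.46. The Elovl1 probe was printed once per array and has no rn4 position in the files.

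Elovl5, which elongates polyunsaturated chains, was well above background on all arrays by both of its probes. Probe 1 lay at -4.01, -4.12, -4.27 and -3.85 (-4.06 ± 0.18, SD, n = 4), and probe 2 at -4.91, -4.43, -4.30 and -4.49 (-4.53 ± 0.27). The 2 probes share 15 bases, as printed above, and their means differed by 0.47 log2 units, but they did not place the replicates alike. Replicate 3 was the lowest on probe 1 and the highest on probe 2, and replicate 1 was the lowest on probe 2. Probe 2 was the 1 member probe of 8 that spanned at least 1.5-fold between replicates (1.53-fold), against 14.2 percent of the 19400 probes well above background on all arrays.

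Elovl6, which lengthens palmitate to stearate, rested on 1 of its 2 probes. Probe 2 (chr2:227054046-227054105, plus strand) lay at -3.79, -3.62, -4.02 and -3.68 (-3.78 ± 0.18, SD, n = 4) and was well above background on all arrays. Probe 1, which is split in the genome, had signals of 9.14, 14.4, 48.4 and 15.0 units and was well above background on replicate 3 alone. Its levels there and on the other replicates were -4.61 on replicate 3 and -7.17, -6.69 and -6.00 on replicates 1, 2 and 4. Replicate 3 was thus the high sample on probe 1 and the low sample on probe 2. The background intensity beside the spot of probe 1 was 62 units on replicate 3, against 39, 42 and 31 on replicates 1, 2 and 4. Whether this bears on the signal of that spot was not tested. When every probe of a gene had to be above background, Elovl6 was lost and 4 of 9 members were left.

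None of the 3 member desaturases was well above background on all arrays. Scd, the stearoyl-CoA desaturase that makes oleate (chr1:249458860-249458919, minus strand), had signals of 7.08, 10.3, 4.62 and 9.31 units and levels of -7.54, -7.17, -8.00 and -6.69. It was well above background on no array and passed the weaker flag on 3. Fads1, the delta-5 desaturase (chr1:212684643-212684702, plus strand), had levels of -7.93, -8.46, -6.74 and -7.72, was well above background on no array and passed the weaker flag on 2. For both genes the values lie below the weakest well-above signal of their arrays and give no order of replicates.

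Fads2, the delta-6 desaturase that acts before Fads1, was well above background on 1 array. Its signals were 6.76, 17.6, 49.3 and 26.5 units, and its levels -7.61, -6.41, -4.58 and -5.18. Replicate 3 was the 1 array on which the probe was well above background, and the values on the other 3 give no order of replicates and no fold range. The weaker flag was set on all 4 arrays, so under it 6 of 9 members counted as present, against 65.5 percent of named genes. The Fads2 probe and Elovl6 probe 1 were each above background on replicate 3 alone, and without that array both would be above background on none. Of the 1663 probes on the whole array that were well above background on 1 array, 16.3 percent were so on replicate 3, and 41.9, 34.4 and 7.4 percent on replicates 1, 2 and 4.

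The spread between replicates was tested in limma, which set the variance of each probe well above background on all arrays against that of probes of like signal. Of the 8 member probes tested, 0 passed at an adjusted p of 0.05, and 0 had an unadjusted p below 0.05. Over all 19400 probes 33 passed (0.17 percent), and 1261 had an unadjusted p below 0.05. The smallest member p was that of Acaca probe 1, whose SD of 0.26 stood beside 0.16 for probes of like signal (limma, unadjusted p = 0.13, adjusted p = 0.97). For Acly and Elovl1, limma gave unadjusted p of 0.83 and 0.86. The Acly level is a mean over 10 spots per array, and the test made no allowance for the number of spots. Its p is therefore not like that of the probes with 1 spot. A p above the threshold with 4 arrays does not show that replicates were equal. When dim probes were also fitted, Fads2 passed (SD 1.34 against 0.47 for like signal, adjusted p = 1.8e-03 in limma), as 1 of 1121 probes called among 45588. That value rests on 3 arrays on which its probe was not well above background.

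**Figure D3:**
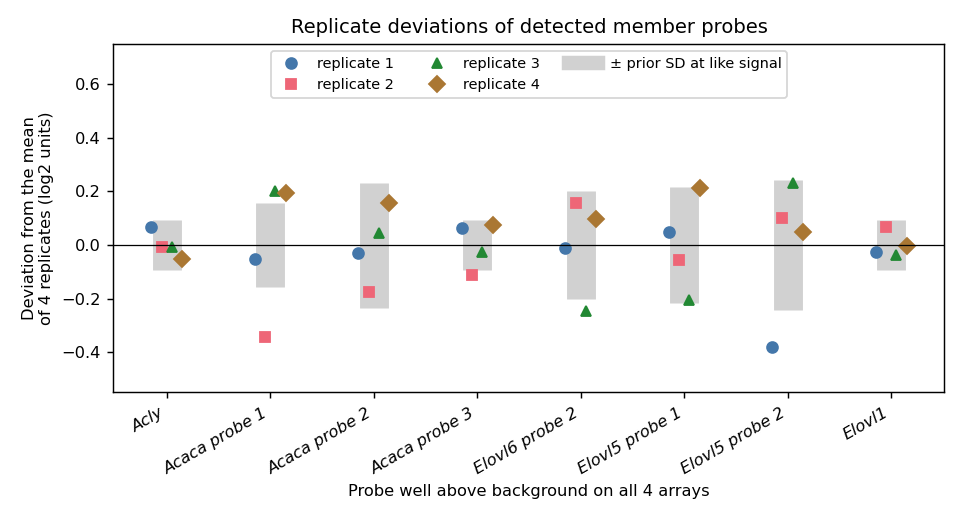
Deviation of each replicate from the mean of its probe, in log2 units, for the 8 member probes well above background on all 4 arrays; grey bars show plus and minus the SD that limma's prior gives for probes of like signal. Replicate 2 on Acaca probe 1 (-0.34) and replicate 1 on Elovl5 probe 2 (-0.38) lie farthest out, and the Acly and Elovl1 points lie within their grey bars. The Acly points are means over 10 spots, and the others are of 1 spot each.

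By gene, the median SD of the 5 members above background was 0.087, against 0.112 over all 10341 such genes, and 0 of the 5 spanned 1.5-fold, against 10.5 percent. By probe, the median SD of the 8 member probes was 0.158, against 0.126 over all probes. With the mean over a gene's detected probes in place of its brightest probe, the member median by gene was 0.123. The members did not share 1 low or high sample: replicate 3 was the lowest for 3 of 5, replicates 2 and 4 for 1 each and replicate 1 for 0, against 27.9, 20.2, 28.3 and 23.7 percent of all detected genes in that order. The highest was replicate 2 for 2 members, replicate 4 for 2, replicate 1 for 1 and replicate 3 for 0, against 25.5, 32.1, 19.8 and 22.6 percent. None of the 5 had a sample past Dixon's critical value for a value that stands apart from the others, against 5.12 percent of all detected genes. The mean deviation of the 5 members was 0.03, 0.01, -0.10 and 0.07 on replicates 1 to 4. Over all detected genes it was -0.009, 0.002, -0.019 and 0.026. These deviations, and the counts of lowest and highest samples, use the brightest detected probe of each gene. Relative to the same percentile, the labelled spike-in controls lay at 4.54, 4.54, 5.10 and 5.50 on the log2 scale. When the arrays were scaled on them instead, the median SD of the members was 0.488. Each difference between replicates above is relative to the percentile.

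The wider pathway was followed in a list of 60 further genes, of which 59 were matched on the array and Scd5 was not. Of these, 47 (79.7%) were well above background on all 4 arrays, 4 on some and 8 on none, against 54.9 percent of all named genes on all arrays, the share beside which each count by role below also stands. The list was drawn up with earlier results on these cells known and is no independent support for its level of detection.

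All 7 genes that supply carbon and NADPH were well above background on all arrays. Slc25a1, the mitochondrial citrate carrier that delivers the substrate of Acly, lay at -0.69, -0.74, -0.51 and -0.61 (-0.64 ± 0.10, SD, n = 4). Acss2, which makes acetyl-CoA from acetate, lay at -1.13 ± 0.07. The NADPH-forming malic enzyme Me1, at 1.68 ± 0.07, belonged to the same group; this gene and others marked below were picked for the text after their values were seen.

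Around the carboxylase, 6 of 8 genes were well above background on all arrays. Acacb, the acetyl-CoA carboxylase of the mitochondrial surface, was so on 1 array by 1 of its 2 probes, at -6.21, -5.43, -6.71 and -6.23. Mid1ip1, a protein that promotes assembly of the carboxylase into filaments, lay at 0.12 ± 0.14, while its relative Thrsp was above background on 2 arrays, at -5.95 ± 0.30. The mitochondrial fatty acid synthesis genes Mcat, Oxsm, Mecr and Cbr4 were all above background on every array, and so was the thioesterase Olah.

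Of 10 further genes of the elongation cycle, 6 were above background on all arrays and 4 on none. The other elongases Elovl2, Elovl3, Elovl4 and Elovl7 were each well above background on no array. All 6 genes of the later steps were above background on every array by at least 1 probe, namely the ketoreductase Hsd17b12, the dehydratases Hacd1, Hacd2, Hacd3 and Hacd4, and the reductase Tecr. Hacd2 was so by 1 of its 3 probes and Hacd4 by 1 of its 2. Hsd17b12 lay at 2.54 ± 0.06 on 1 probe and -0.99 ± 0.17 on the other, both above background on all arrays. Tecr lay at 1.85 ± 0.15. Hsd17b12 and Tecr were named after their values were seen. With the members, 3 of 7 elongases were above background on all arrays.

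Of 8 other desaturases and electron carriers on the array, 5 were above background on all arrays, 2 on some and 1 on none. Fads3 was above background on no array and Fads6 on replicate 3 alone, at -5.87. Scd2 had 1 probe above background on replicate 1 alone, at -5.55, and a second probe on none. Scd4 was the 1 relative of Scd above background on all arrays, by 1 of its 2 probes (chr1:249403950-249404009, plus strand), at -3.34, -3.20, -4.29 and -3.16 (-3.50 ± 0.53, SD, n = 4). Replicate 3 was low on that probe, 2.18-fold below the highest, and limma gave an adjusted p of 0.45 for its spread. The other Scd4 probe (chr1:249393320-249393379, plus strand) was above background on none. The Scd genes are close copies, and whether their RNA binds each other's probes was not tested. The electron carriers on the list were above background on all arrays, as was the sphingolipid desaturase Degs1. Cyb5r3 lay at 0.84 ± 0.04 and Cyb5b at -3.61 ± 0.16. Cyb5a lay at 2.92 ± 0.07 on 1 probe and 2.08 ± 0.07 on the other. Degs1 lay at 3.96 ± 0.04 on 1 probe and 1.05 ± 0.14 on the other. All of these probes were above background on every array. These 4 genes were named after their values were seen.

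**Figure D4:**
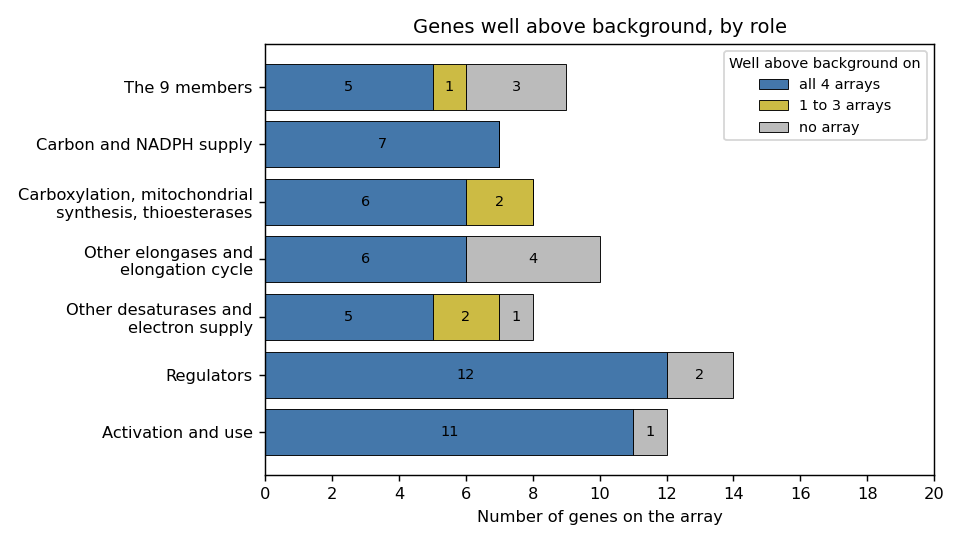
Number of genes well above background on all 4 arrays (blue), on 1 to 3 (yellow) and on none (grey), for the 9 members and the 59 matched genes of the wider pathway by role. The counts on all arrays are 5 of 9 for the members and 7 of 7, 6 of 8, 6 of 10, 5 of 8, 12 of 14 and 11 of 12 for the other groups from top to bottom.

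Of 14 regulators 12 were above background on all arrays. Srebf1, which drives transcription of fatty acid synthesis genes, lay at 0.33 ± 0.12 on 1 probe and -1.51 ± 0.17 on the other, and both were above background on every array. Srebf2, its counterpart for cholesterol synthesis, lay at 2.18 ± 0.13. Both were lowest on replicate 2 and highest on replicate 4 by the brightest probe. Prkaa2, a catalytic subunit of the AMP-activated kinase that restrains acetyl-CoA carboxylase, and Ppara, a nuclear receptor of fatty acid oxidation, were above background on no array. The other catalytic subunit, Prkaa1, was above background on all arrays by both probes, at 0.97 ± 0.14 and -2.64 ± 0.12. It was named after its values were seen. The oxysterol receptor Nr1h3 lay at 2.35 ± 0.11 and the glucose-responsive Mlxipl at -4.07 ± 0.47. The SREBP anchor Insig1 lay at 1.66 ± 0.25 on 1 probe and 0.04 ± 0.16 on the other, both above background on all arrays. Nr1h3, Mlxipl and Insig1 were named after their values were seen. Srebf1 and Nr1h3, known activators of Fasn and Scd, were above background on every array, and the Fasn and Scd probes, 1 for each gene, on none. Whether the activators were active in these cells, or whether either probe had failed, was not tested.

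Among genes that activate and use fatty acids, 11 of 12 were above background on all arrays. The acyl-CoA synthetases Acsl1 and Acsl3 lay at 1.66 ± 0.04 and -1.03 ± 0.04, and Acsl6 was above background on none. The triglyceride-forming Dgat1 and Dgat2 and the membrane-remodelling Lpcat3, which places polyunsaturated chains in phospholipids, were also above background on all arrays, and these 3 were named after their values were seen.

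Promoter sequence was available in RefSeq for 6 of the 9 members on the GRCr8 build, which is not the build of the probe positions. The 250 bases before the annotated start were searched on both strands for CCAAT, the box bound by NF-Y, for GGGCGG, a GC box, and for TCACNCCAC, a form of the sterol regulatory element. CCAAT was found in 3 of 6, Acly, Elovl5 and Fads1, against 34.3% of 27457 promoters. GGGCGG was found in 3 of 6, Acly, Fads1 and Fads2, against 32.4%. TCACNCCAC was found in 0 of 6, against 0.976%, which says only that these letters are not in these windows. The promoters of Acly, which was above background on every array, and Fads1, which was on none, are shown because both hold each of the first 2 motifs, in capitals.
Acly (chr10:85963632-85963881, minus strand): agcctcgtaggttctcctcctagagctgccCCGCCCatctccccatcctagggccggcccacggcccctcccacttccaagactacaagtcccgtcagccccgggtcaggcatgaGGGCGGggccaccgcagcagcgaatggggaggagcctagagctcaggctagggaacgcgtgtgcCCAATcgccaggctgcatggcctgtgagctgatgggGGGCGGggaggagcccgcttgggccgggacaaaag
Fads1 (chr1:216252442-216252691, plus strand): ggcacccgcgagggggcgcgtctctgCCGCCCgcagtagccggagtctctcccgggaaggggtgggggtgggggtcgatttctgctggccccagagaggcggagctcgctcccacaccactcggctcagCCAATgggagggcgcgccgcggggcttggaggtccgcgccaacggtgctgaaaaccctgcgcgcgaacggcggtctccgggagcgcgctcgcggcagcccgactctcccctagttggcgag
Acly holds 3 GC boxes and Fads1 holds 1, and the CCAAT box begins at position -71 relative to the start in Acly and at -121 in Fads1. A match is a description of the sequence and not a site shown to be used.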

How the data were processed

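RNA of 4 samples of 1 group was labelled with Cy3 from 100 ng each and hybridised to one-colour arrays, per the labels' protocols. The deposited files hold one array each, with the processed intensity, mean intensity and background intensity of every spot on a linear scale, background-corrected and detrended by Agilent Feature Extraction 11.0.1.1, per the file headers, with no scaling across arrays. All arrays lay on 1 slide with 1 scan, so no batch could be tested. Each array had 62976 spots, 58717 of them not controls, and none was saturated. Between 402 and 615 spots per array with outlier flags were left out. The number of arrays limits the precision, and p-values measure only the spread between these samples.

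Levels are log2 intensity minus each array's 75th percentile, averaged over spots of a probe. A gene was detected when at least 1 probe was on all 4 arrays, and its level is that of its brightest detected probe. Probes were named through a RefSeq table of GRCr8: 23838 by accession, 5139 by symbol, 355 by a former symbol, and 16266 by the array's own name. Placeholder symbols were not counted as named genes. Probe coordinates are the files' own, on rn4; no exon annotation of that build was used. Promoters and their positions are from RefSeq on GRCr8.

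The variance test used limma 3.58.1 (R 4.3.3), with a robust prior with a trend in signal and Benjamini-Hochberg adjustment over all probes tested, and the scripts were tested on simulated data. Tables were made with Python 3.11.15, numpy 2.4.6, pandas 2.3.3 and matplotlib 3.10.9. The text names every member, the first 2 genes of each role group, the genes of a group that were or were not detected where they number 4 or fewer, and any past the variance test; other genes were named after their values were seen. The members, lists and rules were chosen with earlier results of these data known. Alternatives were other detection rules, background corrections, scalings and priors, the mean over probes, and leaving out each replicate. Results of some listed genes are not reported here.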

Additional observations from a re-analysis of the deposited data

Results flagged for a closer look

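Dixon's test asks whether the highest or lowest of the 4 arrays is separated from its neighbour by an unusual share of the whole range, at a 95% critical value that chance passes in about 1 of 20 cases. The results examined were the member probes well above background on all arrays and the detected genes that the naming rule picked from the wider pathway. Other genes named in the text, Hacd1 among them, were not examined. Of the 16 results examined, 1 did so: the Scd4 level, whose lowest value, on replicate 3, left a gap of 0.838 of the range (-4.29 against -3.34 to -3.16 elsewhere). Over all detected named genes 5.12 percent had such a sample.

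Outside the members, a predicted gene that the array calls LOC102549542 and describes as like Elovl6 was well above background on all 4 arrays. Its probe lies downstream of the Elovl6 probes (chr2:227057700-227057759, plus strand) at -5.15, -4.66, -4.51 and -4.77, with a mean of -4.77 ± 0.27 (SD, n = 4), against median levels of -8.42 to -7.64 in the negative control spots. A second probe was above background on 3 arrays, with a mean of -5.70. It overlaps the first for most of its length (chr2:227057708-227057767, plus strand), so it is not a separate part of the transcript. The weakest well-above signals of the arrays lie between -6.34 and -5.56.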

How the results depend on the processing

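No paired analysis was possible because all samples belong to 1 group. The number of members above background on all arrays was 5 to 5 without single replicates, 6 with the positive and significant flag and 4 with every probe required; for the wider pathway these counts were 47 to 47, 51 and 40. Member genes past the variance test in limma numbered 0, and 0 to 0 without single replicates, but 1 (Fads2) with no filter on dim probes, and 0 under each other alternative run for it. The median SD of 0.087 moved to 0.488 with spike-in scaling and to 0.179 with no filter, over 9 genes in place of 5, and was 0.0618 to 0.0928 without single replicates. It was 0.132 with the positive and significant flag, over 6 genes. With the mean over detected probes, levels moved by over 1 SD for 2 of 5 members. This put Acaca at -1.58 in place of 2.36, since its 3 probes disagree, and Elovl5 at -4.30. With spike-in scaling 9 of 9 moved. That scaling takes 1 value per array from every probe, so it moved the zero point of all levels alike. With normexp 8 of 9 moved. An offset of 50 was added there to every signal, which lifts dim signals most on a log2 scale, and its share in the shift was not tested. The spike-in controls lay at 4.54, 4.54, 5.10 and 5.50 relative to the percentile on replicates 1 to 4. Under spike-in scaling these differences between arrays enter the spread of every probe alike, not of the members alone. Why the controls and the percentile differed between arrays was not tested. Signal limits the undetected members: Fasn, Scd and Fads1 give no order of replicates.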

Other observations

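Scd3 and Fads2b, relatives of the member desaturases that the pathway list did not hold, were not above background on all arrays. Scd3, which the array lists under a transcript identifier, was well above background on no array, although the weaker positive and significant flag was set on all 4. Its levels were -6.95, -6.24, -5.92 and -7.52. Fads2b had 2 probes, of which one was above background on no array and the other on replicate 2 alone, at -5.38. These genes were picked by name for their likeness to members, after the member values were seen.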
